A study of Mus musculus with 2 samples.

Results

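In blood neutrophils of the mouse, 4877 open regions were called only when the reads of 2 ATAC-seq libraries were analysed together. ATAC-seq uses a transposase to insert sequencing adapters where DNA is accessible. The regions were chosen from the peak lists themselves: overlapping intervals of the pooled list were merged, and a region was kept when no interval of either replicate's own list overlapped it by at least 1 bp. They made up 15.1% of the 32225 pooled regions and 1606 kb of the 14285 kb that these covered. Of the other pooled regions, 12964 overlapped an interval of replicate 1 only, 255 of replicate 2 only and 14129 of both.

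All cells belonged to 1 group, peripheral blood neutrophils of the strain C57BL/6J, taken from adults at 5 to 6 weeks of age, with 50000 cells per library. Both libraries name the same donor record, no sorting is named in the labels, sex was not collected, and nothing says that the replicates came from separate animals. There was no second cell type or treatment. The pooled and replicate lists were thresholded by the irreproducible discovery rate (IDR), which keeps peaks whose rank holds up between repeated samplings, at 0.05. Replicate 1 had 27709 regions in its own list and replicate 2 had 14548.

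As a check of the label, a called interval lay within 1 kb of a start site for 8 of 10 fixed neutrophil markers in replicate 1 and for 2 of 10 in replicate 2, with Ly6g and Fpr1 called in neither. All 5 B cell markers were called in replicate 1 and 3 in replicate 2, against 2 of 5 T cell markers in replicate 1 and 1 in replicate 2. Of the 4 platelet markers and the 4 natural killer markers, 1 each was called in replicate 1 and none in replicate 2. None of the 4 erythroid markers and none of the 4 monocyte markers was called in a replicate. Over all 21911 protein-coding genes, 47.6% had such an interval in either replicate. No share per replicate is given, so the marker counts of a single replicate have no matched background. The part that cells other than neutrophils had in the pooled-only regions was not tested.

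Regulatory DNA is opened by transcription factors that bind short motifs. In granulocytes the ETS factor PU.1 and the C/EBP factors are known to bind many enhancers, RUNX and AP-1 factors often bind beside them, and CTCF binds insulators and anchors of chromatin loops in most cell types. NRF1 and NFY are known for binding close to the start sites of widely expressed genes.

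To show what such regions look like in sequence, 7 windows reaching 50 bp to either side of a summit are printed, each from the pooled-only region with the highest pooled signal value that held a given motif string and no annotated exon. The letters are the GRCm38.p6 (mm10) reference, plus strand, and capitals mark the string: GAGGAAGT for ETS/PU.1, TTGCNNAA for C/EBP, TGTGGTTT for RUNX, TGANTCA for AP-1 and CCAATCA for NFY, where N is any base, and longer strings for CTCF and NRF1. The CTCF string lay on the minus strand, so its capitals are the reverse complement. Other motifs in a window are not marked.
ETS/PU.1, in introns of Filip1l and Cmss1: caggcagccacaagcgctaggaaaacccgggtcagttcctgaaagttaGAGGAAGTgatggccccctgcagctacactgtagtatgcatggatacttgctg
C/EBP, in an intron of Acbd6: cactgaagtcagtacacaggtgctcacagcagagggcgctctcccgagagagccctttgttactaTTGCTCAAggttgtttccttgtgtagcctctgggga
RUNX, in an intron of Kansl1: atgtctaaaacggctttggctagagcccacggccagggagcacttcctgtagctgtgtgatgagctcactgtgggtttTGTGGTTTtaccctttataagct
AP-1, intergenic near Slc24a3: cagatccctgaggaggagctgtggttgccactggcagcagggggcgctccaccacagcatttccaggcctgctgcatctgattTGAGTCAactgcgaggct
CTCF, intergenic near Rbm19: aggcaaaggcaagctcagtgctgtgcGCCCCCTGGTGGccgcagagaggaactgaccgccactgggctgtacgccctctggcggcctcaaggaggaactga
NRF1, at the promoter of Rabep1: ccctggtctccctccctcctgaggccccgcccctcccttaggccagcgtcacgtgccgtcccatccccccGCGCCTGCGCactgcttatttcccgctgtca
NFY, intergenic near Elmo1: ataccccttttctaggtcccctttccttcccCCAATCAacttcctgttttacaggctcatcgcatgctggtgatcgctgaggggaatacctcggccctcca

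The ETS/PU.1 window (chr16:57482418-57482518) had its string across the summit, starting 2 bp before it. In the other windows the string started further off, from 24 bp before the summit (CTCF) to 33 bp after it (AP-1). The ETS/PU.1 region had a pooled signal value of 13.1, with 12.3 in the ranked list of replicate 1 and 7.26 in that of replicate 2. The signal value is the authors' score for a peak, with no stated unit, and it does not order peaks as the IDR does. In replicate 1 the pooled-only region at Syp had 9.52 and an IDR of 0.219, while that at Gfi1 had 4.32 and 0.0591. The C/EBP window (chr1:155564908-155565008) came from a region with a pooled value of 12.1 and 11.8 in replicate 1, and no peak of replicate 2 was listed there. In these windows replicate 1 was higher than replicate 2 wherever both had a peak, though nothing states that their values share a scale.

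The RUNX window (chr11:104361910-104362010) had values of 9.17 in the pool, 8.96 in replicate 1 and 5.27 in replicate 2. The AP-1 window (chr2:145161256-145161356) had values of 10.1, 9.24 and 7.90, in the same order. The CTCF window (chr5:120102906-120103006) had 11.8, 10.2 and 9.98, the closest match between the replicates among the 7. The NRF1 window (chr11:70844676-70844776) was 70.3% GC, the highest of the 7, and had 10.6, 9.76 and 8.35. The NFY window (chr13:20049806-20049906) had 8.95 in the pool and 8.96 in replicate 1, with no listed peak in replicate 2.

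Pooled-only regions were weak and narrow, as a rule built on thresholds selects for, so these values are a description. Their pooled signal value had a median of 6.27, a middle range of 5.24 to 7.16 and extremes of 1.84 and 14.0. The median was 8.46 for regions called in replicate 1 only and 13.7 for those called in both. Their median width was 272 bp, against 309 bp and 517 bp. In 86.6% the interval held 1 summit, the same share as in regions called in replicate 1 only (86.6%) and above that in regions called in both (65.2%).

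**Figure D1:**
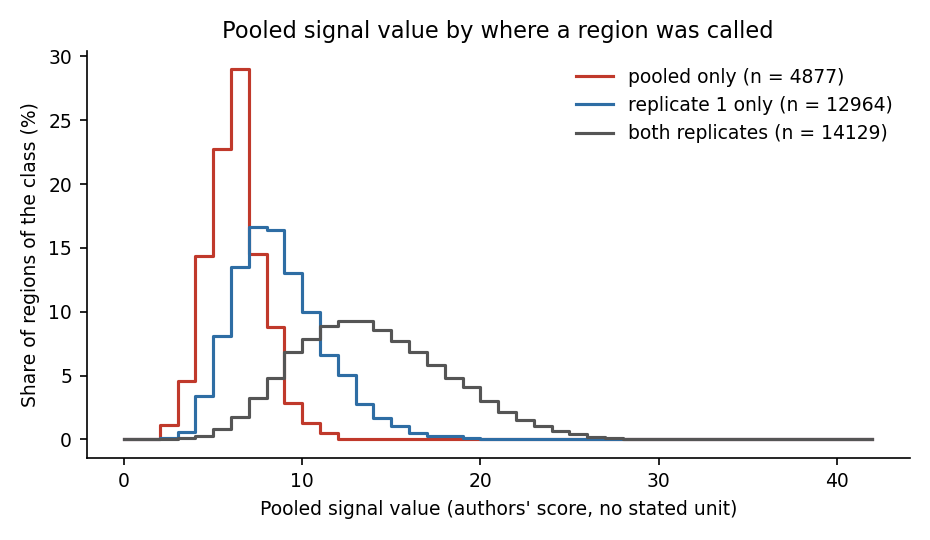
Share of regions (%) by pooled signal value in bins of 1, for the 4877 pooled-only regions, the 12964 called in replicate 1 only and the 14129 called in both. The pooled-only curve has its median at 6.27 and overlaps the replicate 1 curve, whose median is 8.46, while the curve of regions called in both spreads up to 42.6.

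Most pooled-only regions lay away from gene starts. Their summits were within 1 kb of an annotated start site, called promoters here, in 1318 cases (27.0%, 95% Wilson interval 25.8 to 28.3%). Another 1857 (38.1%) were in introns, 1466 (30.1%) between genes and 236 (4.84%) in exons. Regions called in both replicates were promoters in 61.7% (60.9 to 62.5%), and the intervals of the shares did not overlap. Regions called in replicate 1 only were the most alike, with 24.5% promoters (23.7 to 25.2%), 38.7% introns and 32.2% intergenic. Intervals cover counting error only, since regions of 1 genome are not replicates.

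**Figure D2:**
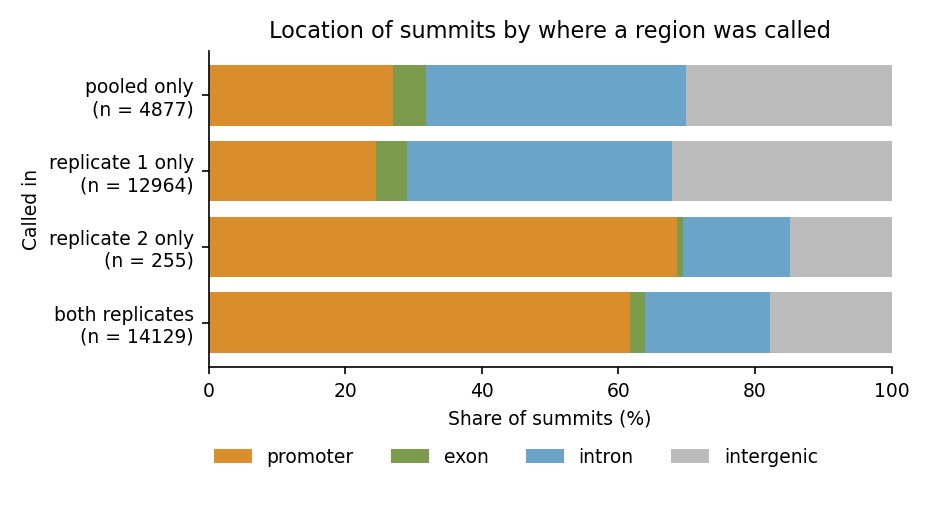
Share of summits (%) at promoters, in exons, in introns and between genes, for each class of pooled region; bars add up to 100%. Pooled-only regions (27.0% promoters) resemble regions called in replicate 1 only (24.5%) and differ from those called in both replicates (61.7%) or in replicate 2 only (68.6%).

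Distance followed the same order. The median distance from summit to the nearest start site was 4598 bp in pooled-only regions, 5196 bp in those called in replicate 1 only and 156 bp in those called in both. Only 2.07% of pooled-only regions were intergenic and over 50 kb from any start site. Summits lay in repeat-masked sequence in 9.88% of pooled-only regions (9.08 to 10.8%), in 9.47% of those called in replicate 1 only and in 5.70% (5.33 to 6.09%) of those called in both.

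The base composition differed by location. The median GC content within 50 bp of the summit was 60.4% at pooled-only promoters and 51.5% in both introns and intergenic regions. Promoters called in replicate 1 only had a median of 57.4%, and those called in both had 63.4%. The 7 pooled-only regions among the 17 pooled regions of chromosome Y aside, pooled-only regions made up between 13.8% of the pooled regions (chromosome 2) and 16.6% (chromosome 13).

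Within the pooled-only regions the share of promoters fell as the signal rose. Bands were cut at the quartiles of their pooled signal value, and the promoter share was 41.3% (38.5 to 44.1%) in the weakest band, then 26.6%, 20.9% and 18.9% (16.8 to 21.2%) in the strongest. Regions called in replicate 1 only, taken in the same bands, had promoter shares of 44.5%, 33.4%, 27.7% and 21.4%. In the middle bands the intervals of these classes did not overlap, with 26.6% (24.3 to 29.1%) against 33.4% (30.8 to 36.0%) and 20.9% (18.7 to 23.3%) against 27.7% (25.6 to 29.9%). So at like signal the pooled-only regions were promoters less often in these bands, although over all signal values their promoter share was the higher.

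**Figure D3:**
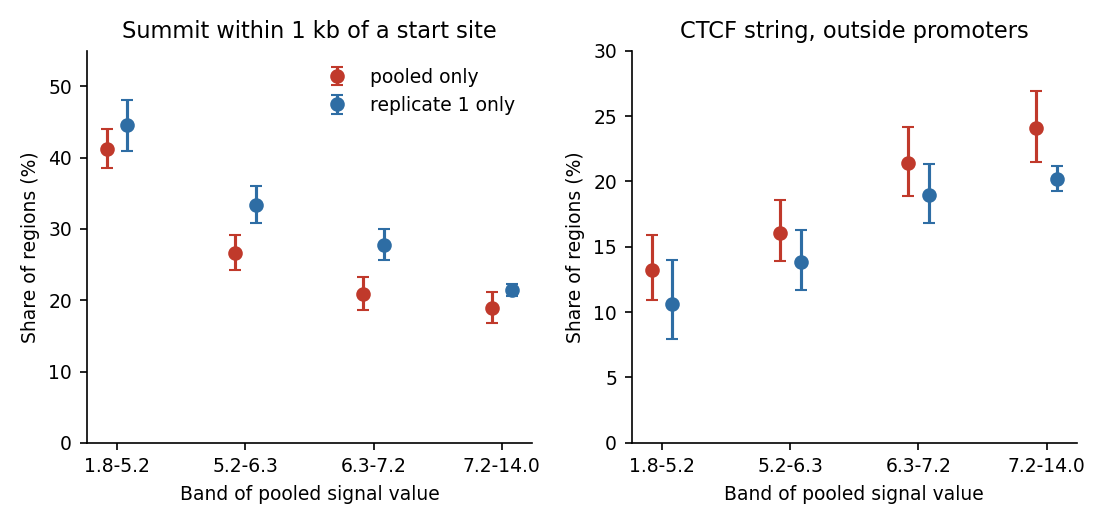
Left, share of regions (%) with a summit within 1 kb of a start site, and right, share of regions outside promoters (%) with a CTCF string within 50 bp of the summit, in 4 bands of pooled signal value; points are shares and bars 95% Wilson intervals. Promoter shares of pooled-only regions fall from 41.3% to 18.9% while CTCF shares rise from 13.2% to 24.1%, and regions called in replicate 1 only run in the same directions.

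Although called in neither replicate's thresholded list, nearly all pooled-only regions had a weaker peak in replicate 1. In the ranked lists, which hold peaks before the IDR threshold, 4745 (97.3%) overlapped a peak of replicate 1 and 2541 (52.1%) a peak of replicate 2. The median signal value there was 5.88 in replicate 1 and 5.50 in replicate 2, with medians of the authors' −log10 p of 15.1 and 9.11. The lowest IDR of any such peak was 0.05001 in replicate 1 and 0.05008 in replicate 2, just short of the threshold, and the median IDR was 0.115 and 0.437, the latter being the highest IDR in the list of replicate 2. Only 83 pooled-only regions overlapped no ranked peak of either replicate.

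The lists of peaks found in pseudoreplicates, which are less strict, split the regions by replicate. There 2483 (50.9%) were present for both replicates, 2259 (46.3%) for replicate 1 alone, 49 for replicate 2 alone and 86 for neither. Promoters made up 32.4% (30.6 to 34.3%) of those present for both and 20.6% (19.0 to 22.3%) of those present for replicate 1 alone. Signal values of the 2492 regions ranked in both were higher in replicate 1 in 61.7%, against 50.6% of the 14129 called in both. Whether values of the replicates share a scale is not stated. Across the 2492 regions, Spearman's rho between the replicates was 0.40, against 0.78 across the regions called in both. Regions of the same pair of libraries are not independent, and the rule leaves a narrow range of signal.

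**Figure D4:**
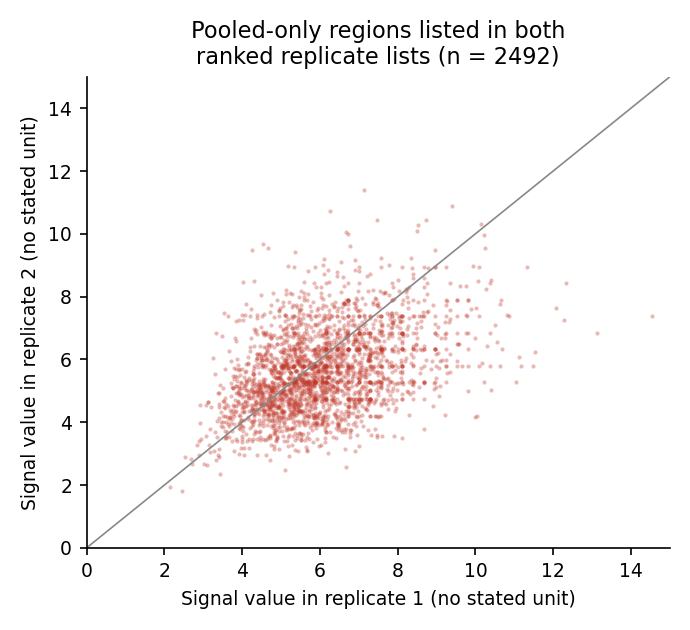
Signal value of pooled-only regions in the ranked list of replicate 1 (x axis) and replicate 2 (y axis), 1 point per region, for the 2492 listed in both; the grey line marks equal values. In 61.7% the point lies below the line, and the points form a wide cloud (Spearman's rho 0.40).

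The authors' conservative list, made from agreement between the replicates, overlapped 1328 of the pooled-only regions (27.2%). These had a higher median pooled signal value (7.39) than the other 3549 (5.94). Their promoter share was 27.6% against 26.8%, with intervals of 25.3 to 30.1% and 25.4 to 28.3%.

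Many pooled-only regions had called neighbours. The median gap to the nearest called interval of a replicate was 8210 bp, 741 regions (15.2%) had one within 1 kb, and 89.0% had one within 50 kb. The median gap to a region called in both replicates was 18430 bp, close to the 17616 bp of regions called in replicate 1 only. The smallest gap was 26 bp, at the promoter of Anxa2, which encodes a phospholipid-binding annexin (chr9:69453989-69454532, pooled signal value 4.54, replicate 1 4.33, replicate 2 4.72). The next were 32 bp, in an intron and nearest to Gm17212, and 34 bp, intergenic near Akna. Just outside the rule, a pooled region at the promoter of Tmem8 was covered by a replicate's interval over 22 bp, another at the promoter of Acot11 over 29 bp and the next one, in an intron nearest to Smpdl3b over 113 bp. No pooled-only region had a gap of 10 bp or less, and 20 had a gap of 50 bp or less.

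At promoters, pooled-only summits stood further from the start site than called ones. The median distance was 183 bp, against 131 bp for promoters called in replicate 1 only and 54 bp for those called in both. A protein-coding gene had a start within 1 kb of the summit in 84.7% (82.7 to 86.6%). Where none did, a long noncoding RNA or unverified transcript started there in 8.65% of all pooled-only promoters, and otherwise a pseudogene in 4.32%. Of the promoters called in both replicates, 94.0% (93.4 to 94.4%) had a protein-coding start within that distance.

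The strongest pooled-only promoter was that of Ccdc30 (chr4:119415437-119415762), with a signal value of 14.0 in the pool, 14.5 in replicate 1 and 7.37 in replicate 2. It was followed by Zmym3, a zinc finger protein of chromatin complexes, with 11.7, 9.40 and 10.9 in the same order. Lage3, a subunit of a complex that modifies transfer RNA, had 11.0, 9.80 and 7.90, and its summit lay 1 bp from the start site. For all of these no replicate list had an interval within 1 kb of any start site of the gene.

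Chmp3, Syp, Rabep1, Hells and 9330182L06Rik came next among the genes with no called promoter interval. Chmp3, which encodes a component of the membrane-cutting ESCRT-III machinery, had 10.8 in the pool, 9.61 in replicate 1 and 8.35 in replicate 2, and its region also held the start of the antisense transcript 1700040L08Rik. Rabep1, a regulator of endosome fusion, had 10.6, 9.76 and 8.35. Hells, a chromatin remodeller needed for DNA methylation, had 10.5, 8.72 and 10.4. 9330182L06Rik had 10.5, 8.96 and 8.95. Hells and Zmym3 were higher in replicate 2 than in replicate 1, and the other genes of this group were higher in replicate 1.

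A pooled-only region of high signal did not always mean a gene with no called promoter. Myo1h (11.5 in the pool), Hibadh (11.2), an enzyme of valine breakdown, Setd5 (10.7) and Camk2g (10.7), a calmodulin-dependent kinase, each had another interval called in a replicate within 1 kb of a start site. At Camk2g the replicates were far apart, with 11.1 in replicate 1 and 5.29 in replicate 2. Its IDR in replicate 1 was 0.0505.

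Over all 21911 protein-coding genes, 487 (2.22%) had a pooled-only region within 1 kb of a start site and no replicate interval there, and 10432 (47.6%) had a replicate interval. A further 670 (3.06%) had a pooled-only region beside a called interval. So adding the pooled-only regions gave a promoter peak to 4.24% of the 11479 genes without a replicate call. Of the 487 genes, 482 had a ranked peak of replicate 1 in their pooled-only promoter region and 373 a ranked peak of replicate 2.

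These 487 promoters were intermediate in sequence class. A CpG-rich promoter, as most widely expressed genes have, was found at 50.9% (46.5 to 55.3%) of them, at 70.4% (69.5 to 71.3%) of the genes with a replicate interval and at 19.4% (18.7 to 20.2%) of the genes with no pooled-only or replicate promoter region. The 3 intervals did not overlap. Among the 487 genes, 2 were olfactory or vomeronasal receptor genes and 25 carried a Gm or Rik symbol.

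Gene groups of neutrophils and of other cells were covered by 20 lists with 387 genes, of which 385 matched the annotation. In all, 232 had a replicate interval at the promoter and 13 (3.38%) only a pooled-only region, beside the 2.22% over all protein-coding genes. Those reported here are given by role.

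Among 30 myeloid transcription factor genes, 27 had a replicate interval and 1 had only a pooled-only region, Cebpb, whose product is a C/EBP factor of emergency granulopoiesis. Its promoter region (chr2:167688861-167689352) had a pooled signal value of 4.04, with 3.42 in replicate 1 and 5.19 in replicate 2. Replicate 2 was the higher here, and its IDR of 0.0916 was nearer the threshold than the 0.389 of replicate 1. Of the same list, Gfi1, Runx1, Cbfb, Klf6, Nfe2 and Mafg had a pooled-only region beside a called promoter interval. The region at Runx1 had values of 6.42 in the pool, 6.74 in replicate 1 and 4.66 in replicate 2, and its IDR in replicate 1 was 0.0513.

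Among 30 genes for neutrophil receptors and adhesion molecules, 23 had a replicate interval and 2 had only a pooled-only region. Csf2rb, the shared signalling chain of the receptors for GM-CSF, IL-3 and IL-5, had a signal value of 6.36 in the pool, 5.56 in replicate 1 and 5.37 in replicate 2, with the summit 20 bp from the start. Csf2rb has a close copy, Csf2rb2, so the placement of its reads is uncertain. Tlr2, a receptor for bacterial lipoproteins, had 5.31, 4.28 and 5.34. Both genes had a ranked peak in both replicates.

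Cxcr4, which retains neutrophils in the marrow, Fcgr3, an antibody receptor, and Clec4d, a lectin receptor, had pooled-only regions beside called intervals. None of the 23 matched granule protein genes depended on a pooled-only region, but Bpi and Mmp9 had such a region next to a called interval; 11 of the 23 had no promoter region. All 10 NADPH oxidase genes had a replicate interval, and Cyba and Rac1 had a pooled-only region as well. The region at Rac1, a small GTPase of the oxidase, had 8.19 in the pool, above the upper quartile of 7.16, with 7.36 in replicate 1 and 6.22 in replicate 2.

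Of 25 genes for inflammatory cytokines and the NF-kB response, 16 had a replicate interval and 1 only a pooled-only region, Il1b, which encodes the cytokine interleukin 1 beta. Its region (chr2:129371007-129371257) had 4.45 in the pool and 4.29 in replicate 1, with an IDR of 0.0762, and no listed peak of replicate 2. Its summit lay 34 bp from the start site. Rel, Nfkbiz, Tnip1, Sod2 and Osm had a pooled-only region beside a called interval. Of 22 interferon response genes, Oas2, an antiviral synthetase, had only a pooled-only region, with 6.83, 6.52 and 6.68 in the pool and the replicates.

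In the lists for general cell functions, Plk1, a mitotic kinase, had 7.89 in the pool and 7.82 in replicate 1, where its IDR was 0.0562, with no listed peak in replicate 2. The other 23 cell cycle genes comprised 22 with a replicate interval and 1 with no promoter region. All 24 ribosomal protein genes and all 16 housekeeping genes had a replicate interval. Mcl1, a survival factor of neutrophils, and the near-identical copies Bcl2a1a and Bcl2a1b had pooled-only regions beside called intervals, and reads cannot be assigned with certainty between such copies.

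Genes of other cell types were among the 13 too. Blk, a B cell kinase, had 4.70 in the pool, 4.04 in replicate 1 and 5.19 in replicate 2. The T cell genes Cd28, a costimulatory receptor, and Cd3g, a chain of the T cell receptor complex, had 8.73 and 5.71 in the pool; Cd28 had 8.40 in replicate 1 and 4.74 in replicate 2, and Cd3g had 4.66 in replicate 1 and no listed peak in replicate 2. Csf1r, the growth factor receptor of monocytes and macrophages, had 5.32 in the pool, 3.83 in replicate 1 and 7.21 in replicate 2. In the B cell list 14 of 16 genes had a replicate interval, in the T cell list 5 of 18 and in the monocyte and macrophage list 5 of 18.

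The neuron list, of genes known for roles in nerve cells, held 2 of the 13 as well. Syp, which encodes synaptophysin of synaptic vesicles, was among the strongest pooled-only promoters, with 10.7 in the pool, 9.52 in replicate 1 and 7.90 in replicate 2. Gad1, an enzyme of GABA synthesis, had 5.25 in the pool, 5.26 in replicate 1 and no listed peak in replicate 2, and its summit lay 935 bp from the nearest start site. Of the 16 neuron genes 2 had a replicate interval and 12 no promoter region. The erythroid, platelet, natural killer, dendritic, eosinophil and hepatocyte lists had no gene whose only region was pooled-only.

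Outside promoters, 4662 protein-coding genes (21.3%) had at least 1 pooled-only region within 50 kb of their 5'-most start site, and the mean over all genes was 0.263 regions. The mean was 0.867 for neutrophil receptors and adhesion, 0.833 for myeloid transcription factors and 0.680 for inflammatory genes. It was 1.13 for the 16 housekeeping genes, so a high count was not limited to neutrophil lists. For granule proteins it was 0.348 and for erythroid genes 0.125. The number of pooled regions of every kind outside promoters differed too, with a mean of 1.41 over all genes, 4.90 for the receptor genes and 1.19 for erythroid genes. As a share of these, pooled-only regions made up 18.6% over all genes, 17.7% for receptors and adhesion, 20.8% for myeloid transcription factors, 16.7% for inflammatory genes and 30.5% for housekeeping genes. The shares of these 3 lists other than housekeeping were near that over all genes. Across all 20 lists shares ran from 8.33% (dendritic, 6 of 72) to 40% (hepatocyte, 6 of 15), with regions counted once per gene. The housekeeping share rests on 18 of 59, so shares of single lists rest on small counts.

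The strongest pooled-only region away from promoters lay between genes, 12102 bp from the start of Atxn1, with 13.9 in the pool, 13.1 in replicate 1 and 6.85 in replicate 2. The next was the ETS/PU.1 region printed above, in introns of Filip1l and Cmss1. A region 36334 bp from the start of Slc38a1, a glutamine transporter, had 12.5, 11.3 and 8.95, and its IDR was 0.0512 in replicate 1 and 0.0504 in replicate 2, barely over the threshold in both. The Acbd6 intron with the C/EBP string had 12.1 in the pool.

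Near Pik3cg, which encodes the PI3 kinase subunit that carries chemokine signals in neutrophils, an intergenic region (chr12:32168750-32169276) had 11.7 in the pool, 10.7 in replicate 1 and 7.90 in replicate 2. Its window held the ETS/PU.1 string, and its summit lay 9518 bp from the start site. Near Tma16 an intergenic region with the CTCF string had 11.7, 11.5 and 6.24. The regions nearest to Shisa3, B3gat2, Rbm19 and Lmntd1 had pooled values between 11.7 and 11.9, and only the one near Rbm19 held 1 of the 5 strings ETS/PU.1, C/EBP, RUNX, AP-1 or CTCF.

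No gene had more than 5 pooled-only regions outside promoters within 50 kb, and 8 genes had 5. The first 5 by name were 4930442H23Rik, Cd82, Dapk3, Eef2 and Grasp. Cd82, a tetraspanin of leukocytes, had 5 of its 7 pooled regions outside promoters in this class, with signal values of 4.83 to 6.81. Eef2, the translation elongation factor, Dapk3 and 4930442H23Rik are neighbours on chromosome 10 and counted the same 5 regions of 8, with values of 3.65 to 8.47. Around Grasp it was 5 of 10. All 5 genes had a replicate interval at the promoter.

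Motif strings were searched on both strands within 50 bp of each summit, and flanks 1 kb away that overlapped no peak served as background. The flanks were not matched to the summits for GC content, and its part in differences from the flanks was not tested. Outside promoters, 19.1% (17.8 to 20.4%) of the 3559 pooled-only windows held the CTCF string, against 0.704% of flanks. The share was the same in regions called in replicate 1 only (19.1%) and lower in those called in both (12.6%, 11.8 to 13.6%). ETS/PU.1 was found in 7.90% (7.05 to 8.83%), against 0.513% of flanks, 8.04% in replicate 1 only and 9.43% in both.

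The C/EBP string was in 5.84% (5.12 to 6.66%) of windows against 4.19% (3.74 to 4.70%) of flanks, and AP-1 in 5.79% (5.07 to 6.60%) against 2.87%. AP-1 was more frequent in regions called in both (7.83%, 7.14 to 8.57%). RUNX was in 1.74% (1.36 to 2.23%) against 0.836% of flanks, and its interval lay below that of regions called in replicate 1 only (2.78%, 2.47 to 3.12%). In the 4 signal bands RUNX was in 1.81%, 1.68%, 1.19% and 2.28% of pooled-only windows and in 2.96%, 3.14%, 2.84% and 2.67% of windows called in replicate 1 only. The order held in each band, with intervals that overlapped within bands.

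Of 20 strings, the interval lay wholly above that of the flanks for 11 outside promoters and wholly below for 2, the GATA factor site and the TATA box. The GATA site was in 2.67% of windows against 5.72% of flanks. Both of these strings are mostly A and T, and the flanks were not matched for base composition. Together the strings for CTCF, ETS/PU.1, C/EBP, RUNX and AP-1 were in 37.6% (36.0 to 39.2%) of the windows, 38.7% in replicate 1 only, 35.8% in both and 8.80% of flanks. Both CTCF and ETS/PU.1 were in 6 pooled-only windows (0.169%), a count not compared with the other classes.

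CTCF strings sat on the summit. In bins of 20 bp, the 20 bp on either side of the summit held 7.36 CTCF sites per 100 pooled-only regions and bin, 46.4 times the density beyond 300 bp. The ratio was 46.2 in regions called in replicate 1 only and 22.9 in those called in both. For ETS/PU.1 it was 16.7, for AP-1 2.15 and for C/EBP 1.62.

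**Figure D5:**
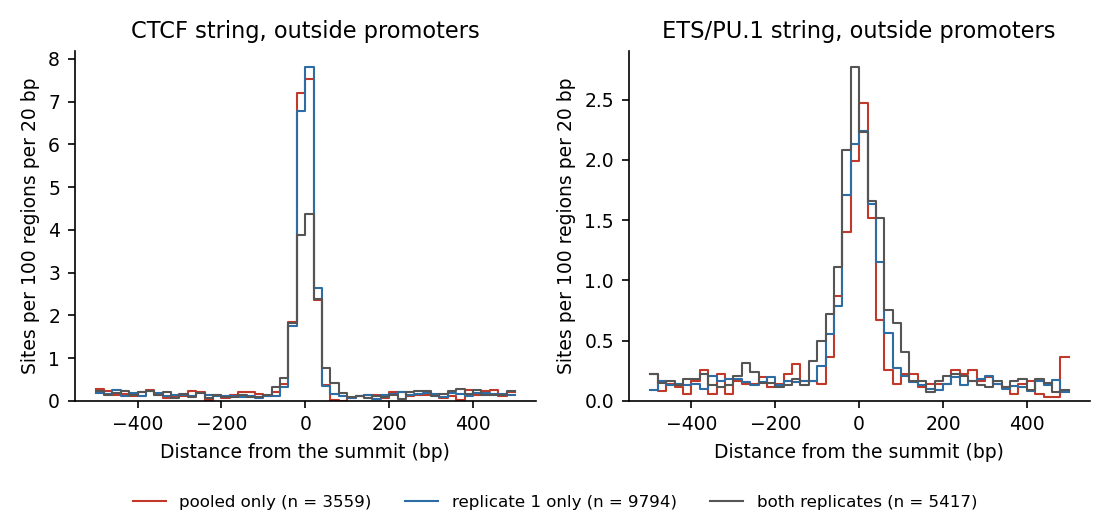
Sites of the CTCF string (left) and the ETS/PU.1 string (right) per 100 regions in bins of 20 bp, by distance from the summit (bp), outside promoters. Both strings peak at the summit of pooled-only regions, at 7.36 and 2.23 sites per 100 regions per bin within 20 bp of it, and regions called in both replicates have a lower CTCF peak (4.13).

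The CTCF share rose with signal, from 13.2% (11.0 to 15.9%) in the weakest band of pooled-only regions through 16.1% and 21.4% to 24.1% (21.5 to 26.9%) in the strongest. In the same bands the regions called in replicate 1 only had 10.6%, 13.8%, 19.0% and 20.2% (19.3 to 21.2%), so the intervals were apart in the strongest band alone. That band is wide, from 7.16 to 14.0, and the classes were not alike in signal within it. Counting promoters too, 63 of its 1192 pooled-only regions had values from 10 to 11, against 1291 of 8782 called in replicate 1 only. ETS/PU.1 showed no such gradient, with 6.56%, 8.52%, 8.12% and 8.07%.

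The 679 pooled-only regions with the CTCF string differed from the 2880 without it. They overlapped the conservative list in 33.3% (29.8 to 36.9%) against 25.5% (24.0 to 27.1%), and their median width was 239 bp against 274 bp. Their summits were repeat-masked in 19.0% against 9.17%, and 47.1% were intergenic against 39.8%. Their median pooled signal value was 6.71 against 6.31. Summits with the ETS/PU.1 string were repeat-masked in 17.1%, against 10.5% without it.

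At pooled-only promoters the CTCF string and the GC-box (GGGGCGGGG), the site of Sp factors, were the most frequent of the 20 strings. The GC-box was in 7.51% (6.21 to 9.06%) of the 1318 windows, against 0.515% of flanks, 4.67% (3.99 to 5.46%) of promoters called in replicate 1 only and 9.97% (9.36 to 10.6%) of those called in both. The 175 promoters called in replicate 2 only had it in 17.1% (12.3 to 23.4%). It was the only string of 20 whose interval lay above that of promoters called in replicate 1 only, and the same held outside promoters (0.927%, 0.661 to 1.30%, against 0.419%, 0.309 to 0.567%). At promoters GC content was higher too (60.4% against 57.4%); the part of GC content was not tested. In the 4 signal bands it was in 8.13%, 7.54%, 6.56% and 7.11%, against 3.69%, 5.57%, 4.58% and 4.79%, with intervals that overlapped within each band.

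CTCF was in 8.04% (6.69 to 9.64%) of pooled-only promoters, near the 8.39% in replicate 1 only and above the 2.90% in both. NFY was in 2.66% (1.92 to 3.67%) against 9.05% (8.46 to 9.67%) in promoters called in both, and a second ETS string (CCGGAAGT) in 1.75% (1.17 to 2.60%) against 6.24% (5.76 to 6.77%). Promoters called in replicate 1 only had intervals that overlapped these, with 3.38% (2.80 to 4.06%) for NFY and 2.27% (1.81 to 2.85%) for the second ETS string. NRF1 was in 2.35% of pooled-only promoters and in none of the 2330 flanks, which allows up to 0.165% by the Wilson interval. The strings find fixed letters only and do not show that a factor was bound.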

How the data were processed

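Peak lists from 2 ATAC-seq libraries of 1 group were used, replicates 1 and 2 as numbered in the labels. Per the file headers they are on mm10; coordinates count from 1. The sources used here name no aligner, peak caller or read shift, and no read counts were used, so the depth is unknown and no floor can be given. The signal value of each peak is a score deposited by the authors with no stated unit. The −log10 p and, in ranked lists, −log10 IDR are the authors' deposited values as well; the headers name no test. Per-replicate values were read from each replicate's own ranked list. The highest signal value, the highest −log10 p and the lowest IDR among the peaks overlapping a region were each taken separately.

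Merging collapsed only peaks of the same interval with several summits; the summit of the highest signal value was used. Genes and start sites came from GENCODE M21 on GRCm38.p6, whose 21 chromosomes hold every listed peak, and bases and repeat masking from RefSeq's copy of that assembly. Summits within 1 kb of any annotated start site were promoters, and others exon, intron or intergenic. For gene calls a region had to reach within 1 kb of any protein-coding start site. CpG-rich meant 500 bp to each side of the 5'-most start with a GC share of 0.5 or more and an observed-to-expected CpG ratio of 0.6 or more. All 20 motif strings are fixed letters; the AP-1 string lies within the MARE string. Shares carry 95% Wilson intervals. With 1 group there was no test between groups and no p-value. The overlap, coverage and motif steps were tested on simulated data. Computation used Python 3.11.15, pandas 2.3.3, numpy 2.4.6 and scipy 1.17.1.

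Named genes were those at the 12 strongest promoter and 10 strongest other regions, up to 3 per list whose only promoter region was pooled-only, the 5 with the most pooled-only regions within 50 kb, and those at the 3 regions nearest to either side of the rule. Genes with a region beside a called interval are named outside that rule, as are markers, and were chosen after their values were seen. Windows over annotated exons and on chromosome 18 were left out of the printed sequences. The regions, lists and motifs were chosen with earlier results of these data known. Bands for the GC-box and RUNX strings were added last. Azu1 and Mx2 did not match the annotation. Some genes that the rule names are left out of the text.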

Additional observations from a re-analysis of the deposited data

How the results depend on the processing

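Of 94 values of 15 results under other settings, 46 stayed within the main count's 1.5-fold range or within its 95% interval and 48 moved. No paired analysis was possible because there was 1 group. Depth is unknown, so what a replicate's missing peak means cannot be judged, and regions share 2 libraries.

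With the less strict replicate lists as the bar, 90 regions were pooled-only, 86 of them among the 4877, with a median signal value of 4.22, 36.7% promoters, 34.4% in introns, 25.6% intergenic, 16.7% repeat-masked, a GC median of 51.5%, CTCF in 21.1% outside promoters, and 1 gene with only such a promoter region. With the conservative list in place of the pooled list there were 1854 regions, with a median signal value of 7.38, 35.8% in introns, 32.0% intergenic, CTCF in 22.6% and 208 such genes; 526 of these regions overlapped no region of the pooled list. Among the 2449 regions at or above the median signal value, 19.5% were promoters, 40.0% in introns and 35.4% intergenic, the GC median was 51.5%, CTCF was in 22.8%, the median signal value was 7.16, and 98.6% were in the less strict list of replicate 1. Over all pooled-only regions the share in that list was 97.2%, and 96.3% where 50% of the region had to be covered.

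A promoter width of 2.5 kb gave 39.3% promoters, 30.7% introns and 26.8% intergenic, and protein-coding start sites alone gave 22.9%, 39.5% and 31.5%. A window of 100 bp on each side of the summit gave a GC median of 51.2% and raised the shares outside promoters to 10.7% for C/EBP, 3.03% for RUNX and 9.38% for AP-1. Leaving out a replicate's list gave 17841 regions without replicate 1, which adds by construction those called in replicate 1 only, and 5132 without replicate 2. The other ranges, without replicate 1 first, were 25.2% and 29.1% promoters, 31.6% and 29.3% intergenic, median signal values of 7.71 and 6.27, and 2063 and 594 genes.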
